A study of Mus musculus with 21 samples.

Results

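The comparison described here is the step from day 1 to day 2 after folic acid in mouse kidney, across every mature miRNA above a filter on low values. It rests on 6 of the 21 libraries of the course, the 3 labelled day 1 and the 3 labelled day 2, chosen by those labels alone. All 6 came from whole kidney of male BALB/c mice of 12 weeks. The animals of both days had received folic acid at 250 mg/kg, made up in 0.3 M sodium bicarbonate. The 3 day 0 libraries of the same strain, sex and age served as a reference for the step before, from day 0 to day 1. They carry the same protocol of 250 mg/kg folic acid in 0.3 M sodium bicarbonate with collection at day 0, and the labels do not say whether those animals were injected. The question was which miRNAs differed over the first day after the injection and which over the second. No group at day 1 or day 2 lacked folic acid, so folic acid, vehicle, injection and time cannot be told apart. The labels do not state whether libraries of a day are separate animals. The p-values measure the spread between libraries of the same day, pooled over all 21 libraries of the course. The model is a chemical injury of the whole organ in 1 strain and 1 sex, and no cell type was isolated.

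A miRNA is a short RNA that is cut from a hairpin precursor and guides Argonaute proteins to messenger RNAs. Pairing is led by the seed, which is bases 2 to 8 of the mature strand, so miRNAs with the same seed can share targets. Folic acid at a high dose injures the tubular epithelium, and injured tubules then die or divide while immune cells enter the tissue. miR-21 is the best known miRNA of kidney injury, and the miR-192, miR-30 and miR-204 groups are characteristic of tubular epithelium. In whole tissue a lower level can come from fewer cells of a type or from less RNA per cell, and these cannot be told apart here.

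The mature sequences of the miRNAs called in this step show which of them could recognise the same sites. They are RefSeq sequences on build GRCm38.p6, written 5′ to 3′ with the seed in capitals.
miR-298-5p: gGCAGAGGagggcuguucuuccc
miR-214-3p: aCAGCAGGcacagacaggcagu
miR-214-5p: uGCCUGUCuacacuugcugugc
miR-130b-3p: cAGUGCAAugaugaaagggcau
miR-92b-3p: uAUUGCACucgucccggccucc
miR-574-5p: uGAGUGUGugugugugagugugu
miR-615-3p: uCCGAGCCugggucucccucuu
miR-15b-5p: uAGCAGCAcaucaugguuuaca
miR-204-5p: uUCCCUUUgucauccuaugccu
miR-203-3p: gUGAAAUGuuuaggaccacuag
miR-1968-5p: uGCAGCUGuuaaggaugguggacu
No pair of them has the same seed, so the called miRNAs do not form a seed family. miR-375-3p was called too and is named only.

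For contrast, these are miRNAs whose rise was larger over the first day than over the second.
miR-21-5p: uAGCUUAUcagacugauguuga
miR-132-3p: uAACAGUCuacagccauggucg
miR-212-3p: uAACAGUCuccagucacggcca
miR-92a-3p: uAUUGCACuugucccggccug
miR-132-3p (chr11:75173723-75173744, plus strand) and miR-212-3p (chr11:75173443-75173464, plus strand) carry the same seed and lie in an intron of 1700016P03Rik. The seed of miR-92a-3p is also that of miR-92b-3p, which was called higher over the second day and was not called over the first. miR-92a-3p has a copy in Mir17hg (chr14:115044476-115044496, plus strand) and another on the X chromosome (chrX:52741854-52741874, minus strand), and both give the same mature strand. miR-21-5p (chr11:86584120-86584141, minus strand) lies within an annotated exon of Vmp1.

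Between day 1 and day 2, 10 miRNAs rose and 2 fell. The risers were miR-298-5p, both arms of miR-214, miR-375-3p, miR-130b-3p, miR-92b-3p, miR-574-5p, miR-615-3p, miR-15b-5p and miR-204-5p. The miRNAs that fell were miR-203-3p and miR-1968-5p. Calls were made in limma at a Benjamini-Hochberg adjusted p under 0.05, and the 12 are 2.78% of the 431 miRNAs tested, with 2.32% higher and 0.464% lower. In each of the 12 the 3 libraries of one day lay wholly above those of the other. Over all tested miRNAs, 16.9% had every day 2 library above every day 1 library and 12.8% had every one below. The count fell on leaving out any 1 of the 6 libraries but day 1 replicate 1. Without that library it was again 12, of which 10 were among the 12 reported. It was 3 and 4 without day 1 replicates 2 and 3, and 2, 3 and 4 without day 2 replicates 1, 2 and 3. With only the 6 libraries compared in the fit, 13 miRNAs were called, and 8 of these were among the 12. miR-298-5p and miR-375-3p kept their calls under all 18 alternatives tried. With library totals in place of TMM scaling, where the median difference over all miRNAs shifts by 0.10 on the log2 scale, 15 miRNAs were called higher and 0 lower in limma, with 89 of either direction at an unadjusted p under 0.05.

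**Figure D1:**
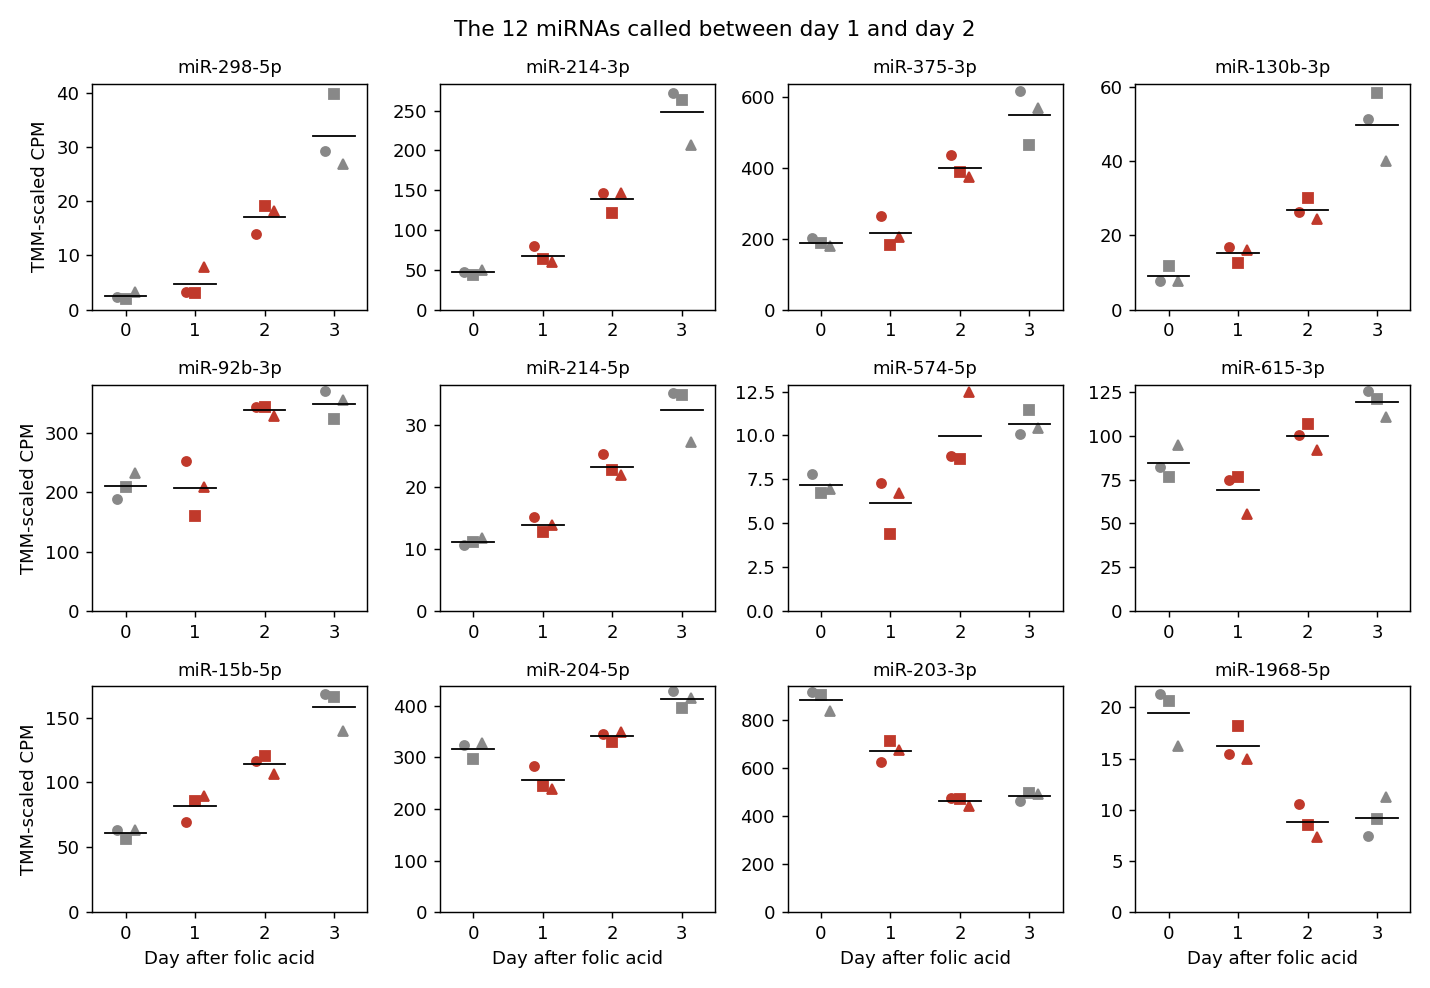
Level of each miRNA called between day 1 and day 2, in TMM-scaled CPM on linear axes that start at 0, by day after folic acid. Points are libraries (circle, replicate 1; square, replicate 2; triangle, replicate 3), bars are means of 3 libraries, red marks the days compared and grey days 0 and 3; in every panel the red points of the 2 days are fully separated.

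Levels below are CPM of reads assigned to miRNAs after TMM scaling, a correction for composition, and are listed for replicates 1, 2 and 3. Changes are differences of log2(CPM + 1) with their standard error (SE) and adjusted p from limma. The day 1 libraries held 2875675 to 4286091 reads and the day 2 libraries 3791713 to 7110546. Where no read was found, up to 3 may have been missed by counting error alone, and those come to at most 1.04 CPM on day 1 and 0.791 CPM on day 2. Among the 1125 miRNAs listed, 587 to 621 had a read in a day 1 library and 645 to 683 in a day 2 library. The most abundant were miR-10a-5p, miR-10b-5p, miR-22-3p, miR-192-5p and miR-21-5p, and miR-192 and the miR-10 pair are known as abundant kidney miRNAs. The liver miRNA miR-122-5p reached no more than 1.07 CPM, and the brain miRNA miR-124-3p and the muscle miRNA miR-206-3p had no read in these 6 libraries.

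miR-298-5p showed the largest called change. It is encoded at chr2:174267553-174267575, minus strand, beside miR-296 and near the imprinted Gnas domain. It stood at 3.19, 3.11 and 7.84 CPM on day 1 and 14.0, 19.1 and 18.2 CPM on day 2, from 14, 12 and 21 reads and then 98, 143 and 79 reads. The lowest day 2 library was above the highest day 1 library, and day 1 replicate 3 was the highest of its day. The difference was 1.75 ± 0.26 (SE), with an adjusted p of 0.000577. Under the 18 alternatives it ran from 1.21 to 2.11, with an adjusted p of at most 0.0141. On day 0 it had been at 1.91 to 3.18 CPM, and the day 1 difference from day 0 was 0.63 (adjusted p = 0.0858). Its neighbour miR-296-3p, 495 bases away, was near the detection floor on day 1 at 0.683, 0 and 0 CPM and at 1.57, 1.74 and 1.16 CPM on day 2, and was not called (adjusted p = 0.127).

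Both arms of miR-214 rose, and neither arm of its neighbour miR-199a was called in limma. The miR-214 hairpin lies in an exon of the noncoding RNA Dnm3os, antisense to an intron of Dnm3 (3p arm at chr1:162223438-162223459, plus strand; 5p arm at chr1:162223397-162223418, plus strand). It is typical of mesenchymal cells and has been studied in mouse kidney fibrosis. miR-214-3p stood at 80.1, 63.5 and 59.7 CPM on day 1 and 147, 121 and 147 CPM on day 2, a difference of 1.02 ± 0.21 (SE, adjusted p = 0.0123). miR-214-5p stood at 15.3, 12.7 and 13.8 and then 25.4, 22.7 and 21.9 CPM, a difference of 0.71 ± 0.17 (SE, adjusted p = 0.0230). For each arm all day 2 libraries were above all day 1 libraries. miR-199a-3p, which starts 5555 bases away from the 3p arm in the same transcript, was at 2133, 1906 and 1657 and then 2149, 1939 and 2103 CPM, with overlapping days and a difference of 0.13 (95% interval -0.18 to 0.43). miR-199a-5p was at 198, 174 and 199.8 and then 236, 236 and 214 CPM, with every day 2 library above every day 1 library and a difference of 0.26 (-0.05 to 0.57, adjusted p = 0.341). The row of miR-199a-3p holds the same reads as miR-199b-3p, so these copies cannot be separated. The level of miR-214-3p as a share of that of miR-199a-3p was 3.33 to 3.76% on day 1 and 6.26 to 6.99% on day 2. The call of miR-214-3p was lost without day 1 replicates 2 or 3 and without day 2 replicates 1 or 3 (adjusted p = 0.0533 to 0.0671), and that of miR-214-5p without the filter on low values, without day 1 replicates 2 or 3 and without day 2 replicates 1, 2 or 3 (adjusted p = 0.0596 to 0.144).

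miR-375-3p is known from pancreatic islets, where it restrains insulin secretion, and from other secretory epithelia. It was measured at 264, 182 and 204 CPM on day 1 and 437, 388 and 374 CPM on day 2. The lowest day 2 library exceeded the highest day 1 library. The difference was 0.89 ± 0.14 (SE, adjusted p = 0.000617), and 0.76 to 1.04 under the 18 alternatives. Day 0 libraries had been at 179 to 201 CPM, and the day 1 difference from day 0 was 0.18 (adjusted p = 0.361). The other organ markers in the same list did not pass the test. miR-9-5p, a neural miRNA, was at 254, 194 and 247 and then 233, 222 and 185 CPM with overlapping days, and miR-7a-5p at 4.10, 6.74 and 10.1 and then 4.71, 4.14 and 6.70 CPM.

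miR-130b-3p and miR-15b-5p rose over both steps. miR-130b-3p (chr16:17124071-17124092, minus strand, in an intron of 2610318N02Rik) was at 7.82 to 11.7 CPM on day 0, 16.9, 12.4 and 16.1 CPM on day 1 and 26.4, 29.9 and 24.3 CPM on day 2. Its steps of 0.69 and 0.80 (SE 0.18, adjusted p = 0.0167) were both called. miR-15b-5p (chr3:69009775-69009796, plus strand, in an intron of the condensin gene Smc4) belongs to the miR-15 and miR-16 family, which restrains cyclins and Bcl2. It was at 56.6 to 63.4 CPM on day 0, 69.4, 85.8 and 89.2 CPM on day 1 and 116, 120.0 and 107 CPM on day 2, with steps of 0.41 and 0.49 (SE 0.13, adjusted p = 0.0490). In both miRNAs the 3 days did not overlap. The 2 steps share the day 1 libraries. The seed relatives and neighbours named here were not called in limma. miR-130a-3p, with the seed of miR-130b-3p, differed by 0.02 (95% interval -0.18 to 0.22), and miR-301a-3p by -0.14 (-0.46 to 0.18). miR-16-5p, which starts 143 bases from miR-15b-5p at the locus they share, differed by 0.09 (-0.20 to 0.38), and miR-15b-3p, the other arm, by 0.54 (0.17 to 0.92, adjusted p = 0.106). The reads of miR-16-5p can come from the hairpins miR-16-1 and miR-16-2, so its level is not that of this locus alone. DESeq2 on the recovered reads called miR-15b-3p higher. The call of miR-130b-3p was lost without the filter on low values, without day 1 replicate 2 and without day 2 replicates 1 or 2 (adjusted p = 0.0600 to 0.144). That of miR-15b-5p was lost in 12 of 18 alternatives, among them leaving out any 1 of the 6 libraries (adjusted p = 0.0554 to 0.185).

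miR-92b-3p (chr3:89227126-89227147, minus strand, outside annotated genes) was not called over the first day and rose over the second. Day 0 libraries were at 189.6 to 234 CPM, day 1 libraries at 252, 159.9 and 209 CPM and day 2 libraries at 344, 343 and 328 CPM. Day 1 was the most scattered of these days, and all day 2 libraries were above it. The step to day 2 was 0.73 ± 0.15 (SE, adjusted p = 0.0126), beside -0.04 for the step to day 1. The step to day 2 minus the step to day 1, 0.77, was not called in limma (adjusted p = 0.107). Its seed is shared by miR-92a-3p, miR-25-3p, miR-32-5p and miR-363-3p, which differed by 0.10, 0.38, -0.26 and -0.41 and were not called in limma. The most abundant of them, miR-92a-3p, was at 12086, 10225 and 10818 and then 11890.1, 11500.4 and 12061 CPM, and the sum of the 5 was 12179 to 14237 CPM on day 1 and 14107 to 14538 CPM on day 2, ranges that overlap. The level of miR-92b-3p was 1.56 to 2.09% of that of miR-92a-3p on day 1 and 2.72 to 2.99% on day 2, after 3.49 to 4.92% on day 0. The call was lost without the filter on low values, without day 1 replicate 2 and without day 2 replicates 1 or 2 (adjusted p = 0.0600 to 0.144).

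miR-615-3p and miR-204-5p met the rule for a delayed responder. It asked for a call from day 1 to day 2 and for a called step difference, which is the step to day 2 minus the step to day 1, in the same direction. The rule does not separate a delayed rise from a dip on day 1. Both miRNAs had a lower mean on day 1 than on day 0. From day 0 to day 2 they differed by 0.24 (miR-615-3p) and 0.11 (miR-204-5p) on the log2 scale, which was not tested. miR-615-3p was not called over the first day. The miRNA is encoded in an intron of Hoxc5 (chr15:103014969-103014990, plus strand). Its level was 76.7 to 94.6 CPM on day 0, 74.7, 76.7 and 55.3 CPM on day 1 and 101, 107 and 91.7 CPM on day 2. Day 1 replicate 3 was the lowest of the 9 libraries, and day 0 overlapped with both day 1 and day 2. The step to day 2 was 0.54 ± 0.13 (SE, adjusted p = 0.0275), the step to day 1 -0.30 (adjusted p = 0.111), and the step difference 0.84 ± 0.23 (SE, adjusted p = 0.0350). The step difference lost its call in 11 of 21 alternatives, among them without day 0 replicates 1 or 3, day 1 replicates 2 or 3, and day 2 replicates 1 or 2 (adjusted p = 0.0505 to 0.300). The step to day 2 lost its call in 8 of 18, among them without any 1 of the 6 libraries compared but day 1 replicate 1 (adjusted p = 0.0504 to 0.189). The other arm, miR-615-5p, was at 7.29, 5.18 and 3.74 and then 7.27, 8.42 and 6.93 CPM, a difference of 0.45 that was not called (adjusted p = 0.289).

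miR-204-5p fell over the first day and rose over the second, so it also met the rule for an immediate responder given below. It is an intronic miRNA of Trpm3 (chr19:22750610-22750631, plus strand), abundant in tubular and retinal pigment epithelium and associated with the differentiated epithelial state. It was at 325, 296 and 327 CPM on day 0, 282, 245 and 239 CPM on day 1 and 345, 329.6 and 348 CPM on day 2. Every day 1 library was below every library of the other two days. The first step was -0.31 (adjusted p = 0.0256), the second 0.42 ± 0.10 (SE, adjusted p = 0.0230), and the step difference 0.73 ± 0.17 (SE, adjusted p = 0.0134). The same day 1 libraries enter both steps. The second step lost its call in 7 of 18 alternatives (without the filter on low values, with only the libraries compared, without day 1 replicates 2 or 3 and without day 2 replicates 1, 2 or 3; adjusted p = 0.0511 to 0.144). The step difference lost it in 3 of 21 (without the filter on low values and without day 1 replicates 2 or 3; adjusted p = 0.0749 to 0.138).

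miR-574-5p had the lowest mean level of the risers. It has a mean of 8.07 CPM over the 6 libraries, under the 10 CPM asked of named miRNAs, and is described because its values were seen to pass the test. It lies in an intron of Fam114a1 (chr5:64970328-64970350, plus strand). Its level was 7.29, 4.40 and 6.72 CPM on day 1 and 8.84, 8.68 and 12.5 CPM on day 2, with no overlap and a difference of 0.63 ± 0.17 (SE, adjusted p = 0.0490). The call was lost in 13 of 17 alternatives, among them without any 1 of the 6 libraries but day 1 replicate 1 (adjusted p = 0.0513 to 0.223). The other arm, miR-574-3p, which was far more abundant, was at 77.6, 70.5 and 58.2 and then 66.7, 64.7 and 77.6 CPM and differed by 0.02 (95% interval -0.26 to 0.31).

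miR-203-3p and miR-1968-5p were the miRNAs that fell. miR-203-3p (chr12:112130927-112130948, plus strand, outside annotated genes) is best known from skin, where it promotes keratinocyte differentiation. It was at 838 to 917 CPM on day 0, 625, 713 and 677 CPM on day 1 and 475, 469 and 441 CPM on day 2. No libraries of these 3 days overlapped, and the steps were -0.40 and -0.54 (SE 0.13, adjusted p = 0.0230), both called. miR-1968-5p (chr8:13189068-13189091, minus strand, in an intron of Grtp1) was at 15.5, 18.1 and 14.9 CPM on day 1 and 10.5, 8.55 and 7.39 CPM on day 2, a difference of -0.81 ± 0.21 (SE, adjusted p = 0.0450). For both, all day 2 libraries were below all day 1 libraries. The call of miR-203-3p was lost with library totals in place of TMM, without day 1 replicates 2 or 3 and without day 2 replicates 1, 2 or 3 (adjusted p = 0.0635 to 0.144). That of miR-1968-5p was lost in 10 of 18 alternatives, among them leaving out any 1 of the 6 libraries (adjusted p = 0.0517 to 0.184).

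Fewer miRNAs were called over the second day than over the first. From day 0 to day 1, 25.3% of the tested miRNAs were called (109, of which 61 rose and 48 fell), beside 2.78% from day 1 to day 2. The median absolute difference was 0.29 on the log2 scale for the first step and 0.20 for the second. Differences over 1 on that scale numbered 28 in the first step and 5 in the second, and those over 0.5 numbered 117 and 49. At an unadjusted p under 0.05 the counts were 161 and 75. The median SD within a day in log2(CPM + 1) was 0.18 on day 0, 0.20 on day 1 and 0.13 on day 2. On the first principal component of all 21 libraries, which held 41.1% of the variance, the mean score was -10.5 on day 0, -2.40 on day 1 and 1.56 on day 2.

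To separate immediate from delayed movement, the step to day 2 was compared directly with the step to day 1 in the same limma fit. An immediate responder was called over the first day and had a called step difference of the opposite sign. This step difference was called for 4.87% of the tested miRNAs, 21 in all, with 15 negative (3.48%) and 6 positive (1.39%). All 15 negative ones were miRNAs that rose by day 1 and were not called from day 1 to day 2. They were both arms of miR-21, miR-31 and miR-92a, with miR-132-3p, miR-212-3p, miR-223-3p, miR-17-5p, miR-19a-3p, miR-20a-5p, miR-23a-3p, miR-23b-3p and miR-221-3p. By day 1 they had made 81.5 to 154% of the log2 change seen from day 0 to day 2. For the 6 called risers of the second step with a positive first step, that share was 16.9 to 46.3%. The choice by step difference fixes much of this contrast, so it describes the classes. Of the miRNAs called from day 1 to day 2, only miR-615-3p and miR-204-5p had a called step difference. For miR-298-5p it was 1.12 (limma, adjusted p = 0.182) and for miR-375-3p 0.71 (adjusted p = 0.105). For miR-92b-3p it was 0.77 (adjusted p = 0.107) and for miR-214-3p 0.51 (adjusted p = 0.504). Some of these were called under an alternative. The step difference of miR-298-5p was called without day 1 replicate 3, and that of miR-92b-3p without day 1 replicate 1. That of miR-375-3p was called with a replicate block and without day 1 replicate 1, and that of miR-214-3p under no alternative. The count of 21 was 12 without day 1 replicate 2 and 11 without day 1 replicate 3. Both steps share the day 1 libraries.

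**Figure D2:**
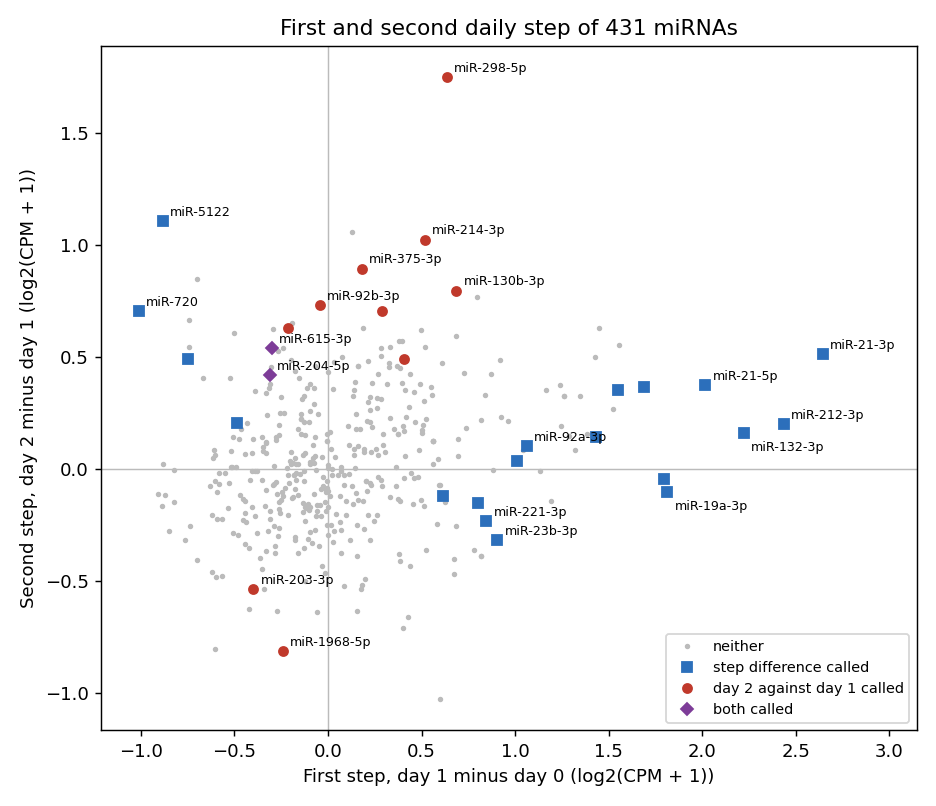
Difference from day 1 to day 2 (vertical) against difference from day 0 to day 1 (horizontal) for the 431 tested miRNAs, both in log2(CPM + 1). Grey points were called in neither test, blue squares in the step difference, red circles from day 1 to day 2 and purple diamonds in both. The immediate risers lie to the right, with first steps of 0.61 to 2.64 and second steps of -0.32 to 0.51. miR-298-5p stands alone at the top, and the day 1 libraries enter both axes.

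miR-21, which represses Pdcd4, took up a growing share of all reads. miR-21-5p held 5.84 to 6.13% of the reads on day 1 and 7.72 to 8.72% on day 2. Its level was 59790.3, 55690.0 and 62756 CPM on day 1 and 81920.2, 82233 and 67647 CPM on day 2, and no day 2 library was as low as any of day 1. The second step was 0.37 (95% interval 0.05 to 0.70, adjusted p = 0.199) and missed the threshold, beside 2.02 for the first step. miR-21-3p, the less abundant arm, was at 1203, 1006 and 937 and then 1659.9, 1474 and 1348 CPM, again with no overlap, and its second step of 0.51 was not called (adjusted p = 0.160). The step differences were -1.64 ± 0.27 (SE, adjusted p = 0.000541) for the 5p arm and -2.13 ± 0.34 (SE, adjusted p = 0.000541) for the 3p arm. Both held under all 21 alternatives.

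The cluster of miR-132 and miR-212, which CREB induces in neurons, was not called from day 1 to day 2. miR-132-3p was at 264, 251 and 214 CPM on day 1 and 288, 269 and 256 CPM on day 2, with the days overlapping. Its second step was 0.16 (95% interval -0.25 to 0.57) after a first step of 2.22, a step difference of -2.06 ± 0.34 (SE, adjusted p = 0.000541). miR-212-3p was at 46.2, 37.8 and 34.0 and then 49.7, 40.5 and 45.1 CPM, also overlapping, with steps of 2.44 and 0.20 (-0.30 to 0.70) and the largest negative step difference called, -2.24 ± 0.41 (SE, adjusted p = 0.00138). Both calls held under all 21 alternatives. The scarcer arms miR-132-5p and miR-212-5p had second steps of 0.15 and 0.33, and their step differences of -1.14 and -1.02 were not called.

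In the cluster of miR-17 to miR-92a, which MYC induces and which favours proliferation, 4 of 9 tested members had a called step difference, each negative, beside 3.48% of all tested miRNAs called negative and 1.39% called positive. miR-92a-3p had a second step of 0.10 (95% interval -0.10 to 0.31) after 1.06, with a step difference of -0.96 (adjusted p = 0.000903). miR-17-5p was at 188, 216 and 237 and then 234, 222 and 200.3 CPM, miR-20a-5p at 159, 187 and 209 and then 168, 166 and 162 CPM, and miR-19a-3p at 55.8, 73.1 and 98.2 and then 72.1, 64.5 and 69.3 CPM. In all of these the days overlapped, and day 1 replicate 3 was the highest library of its day in the latter 3. The step difference of miR-19a-3p was -1.92 (adjusted p = 0.00150) and held under all 21 alternatives, as did that of miR-92a-3p. That of miR-17-5p, -0.97, was lost without day 1 replicates 2 or 3 (adjusted p = 0.0947 to 0.129), and that of miR-20a-5p, -0.95, without day 1 replicate 3 (adjusted p = 0.0984). miR-18a-5p, from the same transcript, was at 26.4, 45.1 and 26.1 and then 49.5, 48.8 and 49.4 CPM with no overlap, yet its difference of 0.63 did not pass (adjusted p = 0.0980).

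No other immediate riser passed the test of the step from day 1 to day 2, and their differences had both signs. miR-221-3p, which represses the cell cycle inhibitor Cdkn1b, was at 1648, 1839 and 1692 CPM on day 1 and 1544, 1428 and 1428 CPM on day 2. miR-23b-3p was at 2022, 2367 and 2159 and then 1755, 1708 and 1779.7 CPM. For both, every day 2 library was below every day 1 library, with second steps of -0.23 (adjusted p = 0.188) and -0.32 (adjusted p = 0.168). Their step differences of -1.08 and -1.22 (adjusted p = 0.000541 and 0.000854) held under all 21 alternatives. miR-223-3p, the neutrophil and macrophage miRNA, was at 148, 126 and 149.7 and then 185, 201 and 161 CPM with no overlap, a second step of 0.37 (adjusted p = 0.341) and a step difference of -1.32 (adjusted p = 0.0350). The latter was lost in 8 of 21 alternatives, among them without day 0 replicate 1, any day 1 library, or day 2 replicates 1 or 3 (adjusted p = 0.0521 to 0.152). The arms of miR-31 had second steps of 0.35 (5p, from 133, 125 and 173 to 162, 189.8 and 197 CPM) and -0.05 (3p), with overlapping days. The second step of miR-23a-3p was -0.12, also with overlap, and that of miR-92a-5p was 0.14, with every day 2 library above every day 1 library. miR-31-3p rested on 1, 1 and 2 reads on day 0, under the floor of 3 reads, and on 10, 15 and 14 reads on day 1. The step difference of miR-31-3p, -1.84, ran from -3.54 to -0.74 over 20 alternatives, so its size is uncertain. Its call was lost without day 1 replicates 2 or 3 (adjusted p = 0.0638 to 0.129). The step differences of miR-31-5p (-1.20) and miR-23a-3p (-0.73) were lost in 9 and 11 alternatives. Leaving out single libraries was among them for each, other than day 0 replicate 2, day 1 replicate 2 and day 2 replicate 3 for miR-31-5p (adjusted p = 0.0521 to 0.254) and day 0 replicate 3 and day 1 replicate 1 for miR-23a-3p (adjusted p = 0.0521 to 0.245).

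Besides miR-615-3p and miR-204-5p, 4 miRNAs had a positive step difference, and each had fallen by day 1 and stood higher again on day 2. miR-28-5p, in an intron of Lpp, was at 255 to 328 CPM on day 0, 210.1, 192 and 200.1 CPM on day 1 and 232, 226 and 238 CPM on day 2. miR-720 was at 26.0 to 40.4 CPM on day 0, 17.1, 16.1 and 14.6 CPM on day 1 and 23.8, 24.0 and 32.3 CPM on day 2. This sequence has since been regarded as a fragment of a transfer RNA rather than a miRNA. miR-598-3p was at 6.66 to 11.5 CPM on day 0, 5.24, 4.67 and 5.97 CPM on day 1 and 8.27, 6.94 and 8.31 CPM on day 2. miR-5122 was at 2.68 to 3.76 CPM on day 0, 1.14, 2.07 and 0.752 CPM on day 1 and 4.27, 3.88 and 3.47 CPM on day 2. Both have a mean under 10 CPM and are named because few miRNAs were called here. In all 4, every day 1 library was below every day 2 library. Their second steps of 0.21, 0.70, 0.49 and 1.11 missed the threshold, with adjusted p of 0.307, 0.147, 0.140 and 0.0581. The step difference of miR-28-5p, 0.69, was lost with library totals in place of TMM, without the filter on low values, with only the libraries compared, without day 0 replicate 3, without day 1 replicates 2 or 3 and without day 2 replicates 1, 2 or 3 (adjusted p = 0.0574 to 0.214). That of miR-720, 1.71, was lost without the filter on low values, without day 0 replicates 1 or 3, without day 1 replicates 1, 2 or 3 and without day 2 replicate 3 (adjusted p = 0.0515 to 0.135). That of miR-598-3p, 1.24, was lost without the filter on low values, with only the libraries compared, without day 0 replicate 1, without day 1 replicates 1 or 2 and without day 2 replicate 1 (adjusted p = 0.0513 to 0.158). The step difference of miR-5122, 1.99, was lost in 10 alternatives, among them without day 0 replicates 1 or 3, day 1 replicates 1 or 3, or day 2 replicates 1 or 2 (adjusted p = 0.0540 to 0.197).

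**Figure D3:**
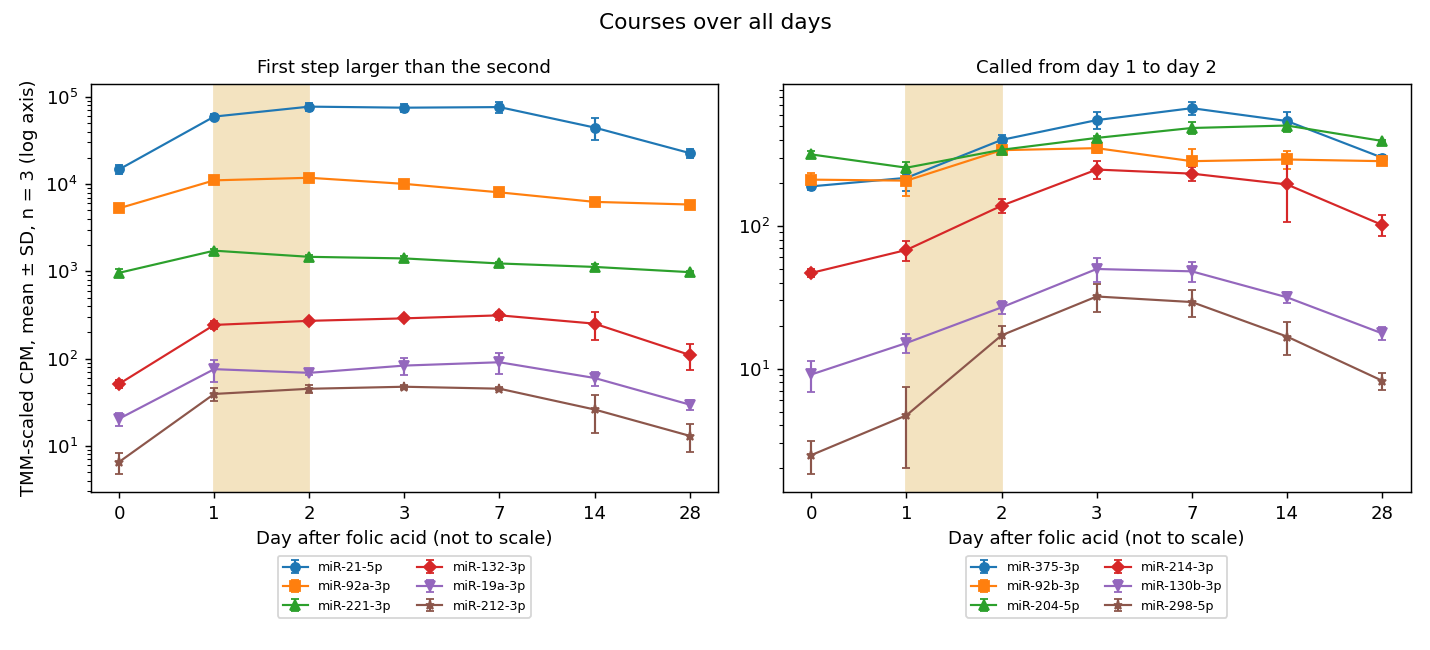
Mean level ± SD of 3 libraries on a log axis (TMM-scaled CPM) by day after folic acid, with days evenly spaced and not to scale. The shaded band marks the step from day 1 to day 2; miRNAs whose first step was larger (left) were not called inside it, and those called from day 1 to day 2 (right) climb through it.

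The mean of every called riser was higher again on day 3 than on day 2. On day 3 miR-298-5p was at 29.2, 39.9 and 26.9 CPM, miR-214-3p at 272, 264 and 207 CPM and miR-130b-3p at 51.3, 58.3 and 39.9 CPM, each with all 3 libraries above those of day 2. miR-92b-3p, at 371, 324 and 355 CPM, overlapped day 2, as did the fallen miR-203-3p at 464, 495 and 492 CPM and miR-1968-5p at 7.40, 9.09 and 11.2 CPM. miR-204-5p was at 428, 395 and 415 CPM, above all libraries of days 0, 1 and 2. By day 28 the mean level of miR-298-5p was 8.24 ± 1.12 CPM (SD, n = 3), beside 2.48 ± 0.646 on day 0, and that of miR-214-3p was 102 ± 17.0 CPM, beside 46.8 ± 3.33. These days are given as levels and were not tested here.

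Among tubular and kidney-enriched miRNAs, miR-204-5p rose and no other member of the list passed the limma test. The list includes both arms of miR-190, which were not among the markers set for tubular epithelium. Of 7 tested tubular and kidney-enriched miRNAs limma called 1 higher and 0 lower, beside 2.32% and 0.464% of all tested miRNAs. miR-194-2-5p was tested and not called, but its name did not match the list's miR-194-5p, so it is not counted here. At an unadjusted p under 0.05, 4 of the 7 were lower, beside 6.50% of all. The list had a median difference of -0.45 beside 0.01 over all tested miRNAs. miR-192-5p, the most abundant of them, was at 91844, 88844 and 78701 CPM on day 1 and 73844, 69473 and 67558 CPM on day 2, with no overlap and a difference of -0.30 (adjusted p = 0.189). miR-190-5p was at 163, 168 and 178 and then 123, 108 and 97.3 CPM, again without overlap, a difference of -0.64 (adjusted p = 0.0581). It was called lower by DESeq2 on the recovered reads, with only the libraries compared and with robust empirical Bayes. miR-215-5p, from the family of miR-192, differed by -0.45 (adjusted p = 0.226). In the miR-30 family, which is abundant in tubules and podocytes, 0 of 9 were called and the median difference was -0.21, with -0.46 for miR-30e-5p and -0.37 for miR-30c-5p. miR-30c-3p was tested and not called, and is left out of the 9 because its name did not match the list. In the epithelial miR-200 family, which represses Zeb1 and Zeb2, 0 of 8 were called and the median was -0.04.

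Of the mesenchymal list, 2 of 6 tested members rose, the arms of miR-214, beside 2.32% of all tested miRNAs. The list holds miR-199a-3p and miR-199b-3p, which are the same reads, and with these counted once its median difference was 0.26, beside 0.20 with both. With the shared reads counted once, the summed level was 1945 to 2442 CPM on day 1 and 2332 to 2574 CPM on day 2, with overlapping ranges, and most of it was miR-199a-3p. Of the endothelial pair, miR-126-3p was at 2746, 2916 and 3031 and then 2154, 2262 and 2378 CPM, a difference of -0.36 with no overlap (adjusted p = 0.0581), and miR-126-5p differed by -0.13. Of 4 smooth muscle members 0 were called and the median was -0.22.

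No blood or immune marker was called in limma. Of 9 leukocyte miRNAs 8 were higher on day 2, beside 52.0% of all tested miRNAs, and 3 were higher at an unadjusted p under 0.05, beside 10.9% of all. The list had a median difference of 0.37. Their summed level was 1244 to 1405 CPM on day 1 and 1523 to 1572 CPM on day 2, with every day 2 library above every day 1 library. No defining member among those tested was at 0 on both days. miR-142-5p, made by all blood cells, was at 857, 755 and 808 and then 1029.9, 984 and 914 CPM, and miR-342-3p at 38.3, 38.6 and 45.5 and then 57.4, 58.8 and 55.7 CPM. The lymphocyte miRNA miR-150-5p went the other way, at 245, 232 and 268 and then 157, 176 and 250.0 CPM, with 2 of 3 day 2 libraries below every day 1 library. Of 4 erythroid members, which report on blood left in the tissue, 0 were called, and their summed level was 4508 to 7654 CPM on day 1 and 4729 to 9598 CPM on day 2, with wide overlap. Of 4 tested miRNAs of the NF-kB list 0 were called, and miR-146a-5p, miR-146b-5p and miR-155-5p differed by -0.22, 0.35 and 0.13. The part of leukocytes or blood in the called changes was not tested.

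**Figure D4:**
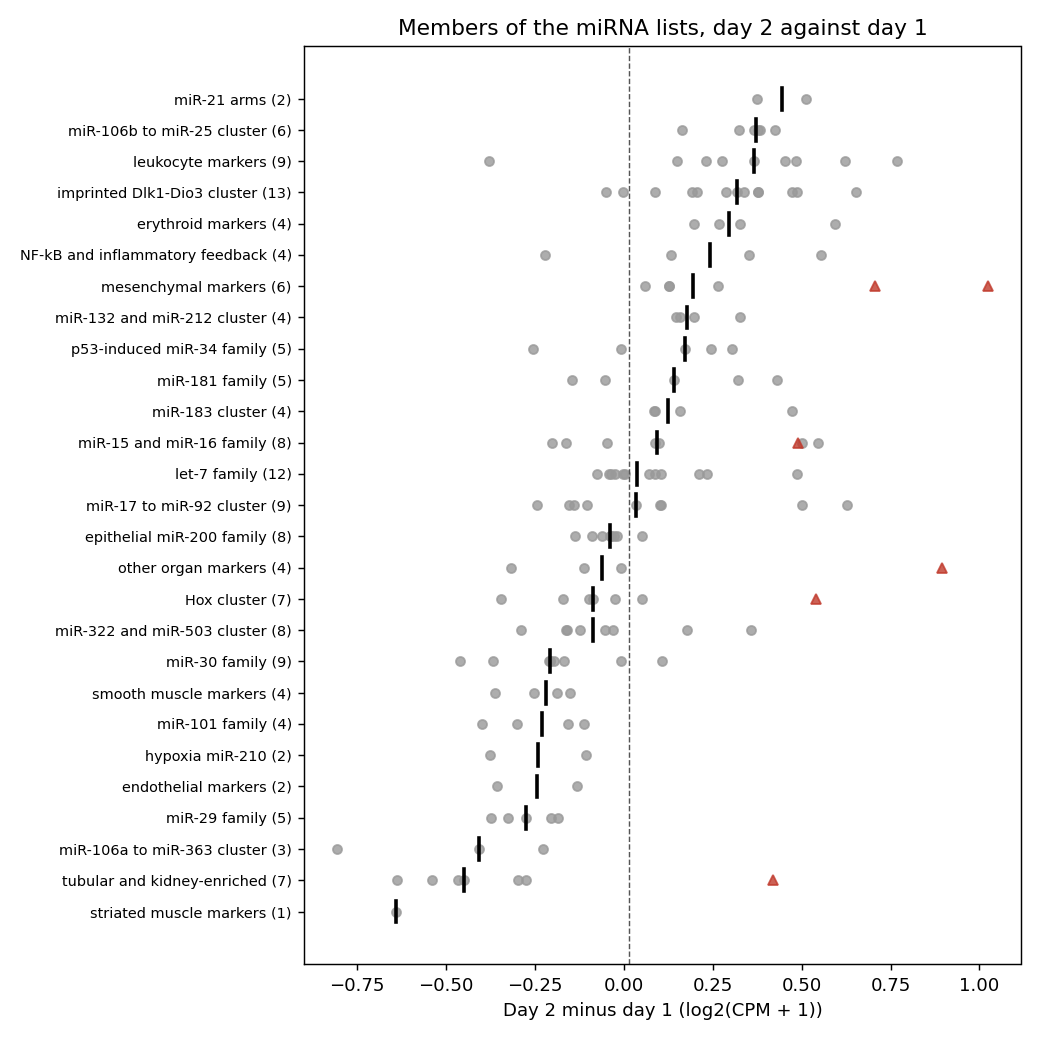
Difference from day 1 to day 2 in log2(CPM + 1) for each tested member (point) of the miRNA lists, with the number tested in brackets. Red triangles were called higher, grey circles were not called, black bars are list medians and the dashed line is the median of all 431 miRNAs at 0.01; medians run from -0.64 to 0.44 and few members were called.

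The remaining families held 2 of the called risers, miR-615-3p among 7 miRNAs of the Hox clusters (median -0.09) and miR-15b-5p among 8 of the miR-15 and miR-16 family (median 0.09). In the miR-106b to miR-25 cluster 0 of 6 were called and all 6 were higher, beside 52.0% of all tested miRNAs, with a median of 0.37. miR-25-3p came nearest, at 1819, 1702 and 1465 and then 2205, 2195 and 2081 CPM (adjusted p = 0.0618). In the related miR-106a to miR-363 cluster 0 of 3 were called and the median was -0.41. miR-20b-5p was there at 12.1, 11.7 and 11.2 and then 8.70, 6.55 and 4.16 CPM (adjusted p = 0.127). Of 12 let-7 family members 0 were called, and let-7i-5p stood apart from the median of 0.04, at 5218, 5180.5 and 4836 CPM on day 1 and 6657, 6886 and 7833 CPM on day 2 with no overlap (adjusted p = 0.0581). Of the miR-101 family 0 of 4 were called, with miR-101a-3p at 10715, 10793 and 11227 and then 9060.5, 8692 and 8816 CPM (adjusted p = 0.0747).

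No member was called in the other lists. The median difference was 0.04 over 9 miRNAs of the miR-17 to miR-92a cluster, -0.28 over 5 of the collagen-repressing miR-29 family and 0.17 over 5 of the p53-induced miR-34 family. It was 0.12 over 4 of the miR-183 cluster, 0.14 over 5 of the miR-181 family and -0.09 over 8 of the miR-322 and miR-503 cluster. The arms of the hypoxia miRNA miR-210 gave -0.11 and -0.38. Of the imprinted Dlk1-Dio3 cluster 13 of 47 passed the filter on low values, with a median of 0.32 over those 13. The muscle miRNA miR-133a-3p was at 17.5, 31.3 and 37.3 and then 15.0, 17.6 and 19.4 CPM, with the days overlapping. At an unadjusted p under 0.05, 10.9% of all tested miRNAs were higher and 6.50% lower. Among the lists with 0 calls in limma, the members past that p numbered 2 for the miR-21 arms, the miR-17 to miR-92a and miR-106b to miR-25 clusters and the Dlk1-Dio3 cluster, all higher, and 2 for the miR-30 and miR-101 families, all lower. They numbered 1 for let-7, miR-181 and the miR-322 and miR-503 cluster, all higher, and 1 for the endothelial pair and the miR-106a to miR-363 cluster, both lower. They numbered 0 for the erythroid, NF-kB, smooth muscle, miR-132 and miR-212, miR-200, miR-29, miR-34, miR-183 and miR-210 lists. On the recovered reads, edgeR's quasi-likelihood test called no member of these lists, and DESeq2 called miR-25-3p, let-7i-5p, miR-126-3p, miR-101a-3p and miR-101c. DESeq2 gave no adjusted p for some members, so those could not be called. It gave one for 5 of 13 in the Dlk1-Dio3 cluster and 2 of 4 of miR-132 and miR-212. For the miR-34 family it gave 3 of 5, and for miR-210 1 of 2.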

How the data were processed

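Small RNA libraries of whole kidney were read on an Illumina instrument after preparation with a TruSeq small RNA kit, per the labels' protocols. CASAVA 1.8 and build mm9 were used, per the submitters' processing notes. Of the aligner, the counter and the release of miRBase, none is named: not given in the sources used here. The authors deposited 1 table of 1125 mature miRNAs in 21 columns, which the file calls counts. Because all columns add up to the same round sum, what the authors deposited is CPM. Every value was a whole multiple of what 1 read is worth in its column, and whole reads were recovered for 100% of the values within 0.05 of a read. Library totals were 2875675 to 7110546 reads assigned to miRNAs, so precision was lowest for miRNAs near the floor of 3 reads.

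From these, edgeR 4.0.16 (filterByExpr, minimum count 10) kept 431 miRNAs. CPM were scaled by TMM, and limma 3.58.1 in R 4.3.3 was fitted with its mean trend to log2(CPM + 1) of all 21 libraries, with 1 mean per day. The contrasts were day 2 minus day 1, day 1 minus day 0, and the former minus the latter. p-values were Benjamini-Hochberg adjusted over the 431 miRNAs and called under 0.05. The pseudocount of 1 CPM understates changes of scarce miRNAs. edgeR's quasi-likelihood test and DESeq2 1.42.0 on recovered reads were alternatives, beside other scalings, filters, pseudocounts, a replicate block and leaving out each library, 21 settings in all. edgeR called 10 miRNAs between day 1 and day 2. The procedure was tested on simulated data.

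miRNAs named were the 12 largest called rises and falls, and the 6 largest called step differences of each sign, averaging 10 CPM or more in the 6 libraries, members of 27 lists, and the 10 most abundant. Exceptions are stated where they occur. Members and lists were chosen with earlier results of these data known. The tested miR-194-2-5p, miR-30c-3p, miR-181a-3p and miR-16-3p did not match the names in the lists and are not counted in them. Sequences and positions come from RefSeq on GRCm38.p6, host genes from GENCODE on the same build. Of the 431 tested miRNAs 331 had a mature RefSeq entry, and 26 of 31 in the called and class sets. No coordinates of mm9 were used.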

Additional observations from a re-analysis of the deposited data

Results flagged for a closer look

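miR-204-5p was called in opposite directions over consecutive days. The step from day 1 to day 2 minus the step from day 0 to day 1 was 0.73 on the log2(CPM + 1) scale (limma, adjusted p = 0.0134), with 282, 245 and 239 CPM on day 1 beside 345, 329.6 and 348 CPM on day 2. All 3 day 2 libraries and all 3 day 0 libraries were above all 3 day 1 libraries, and these day 1 libraries enter both steps.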

How the results depend on the processing

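Of 3696 recomputed values of single miRNAs, 3515 kept their side of the threshold, 153 lost a call and 28 gained one. The sign changed in 127, none of them called in either fit. The counts of calls depended more on the setting. From day 1 to day 2, where 12 were called (10 higher, 2 lower), DESeq2 called 23, with 8 lower, and the test without a filter called 6, with 4 higher. Calls lower numbered 0 with library totals (limma, 15 higher, 89 of either direction at an unadjusted p under 0.05, 75 in the reported fit), 1 with upper-quartile scaling and 4 with only the libraries compared. Leaving out 1 library gave 2 to 12 calls, 2 to 10 higher and 0 to 2 lower (56 to 70 of either direction at an unadjusted p under 0.05 where limma called 0 lower). For the step difference, with 21 calls (6 higher, 15 lower), no filter gave 13 with 0 higher (limma, 101 of either direction at an unadjusted p under 0.05), and only the libraries compared gave 3 higher. Leaving out 1 library gave 11 to 24, 1 to 7 higher and 9 to 17 lower. From day 0 to day 1, 48 were called lower, 27 with library totals and 30 without a filter, and leaving out 1 library gave 85 to 104 in all, 50 to 57 higher and 29 to 47 lower. With a replicate block, 9 were called from day 1 to day 2, 8 higher and 1 lower. The labels do not say that a number pairs libraries, and same-numbered libraries of days 1 and 2 deviated with correlations of 0.053, -0.045 and -0.085. The cause of these movements was not tested, and each fit that leaves 1 library out also holds fewer libraries. Depth limits the scarce miRNAs most, since 3 reads are 0.700 to 1.04 CPM on day 1.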
